A study of Mus musculus with 8 samples.

Results

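Mouse embryonic stem cells labelled as lacking Jarid2 were compared directly with cells lacking Ezh2, using the 2 arrays labelled Jarid2-/- and the 2 arrays labelled Ezh2-/- of a set of 8. EZH2 is the subunit of Polycomb repressive complex 2 that methylates lysine 27 of histone H3, a mark of silent chromatin. JARID2 belongs to the Jumonji family but lacks demethylase activity, and it helps to bring the complex to CpG-rich promoters. EED binds the methylated histone tail and is needed for the enzyme to work, while EZH1 is a second, weaker methyltransferase that can take the place of EZH2. In embryonic stem cells the complex is known for keeping developmental regulators silent, and the comparison of the mutants asks where loss of a recruiting subunit and loss of the catalytic subunit leave different RNA levels.

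The other 4 arrays, 2 of wild-type cells and 2 of Eed-/- cells, entered the estimate of spread and are given as levels. The cells were labelled with the strain cj7 in every group, were grown in 15% fetal calf serum with 1000 U/ml leukemia inhibitory factor, a cytokine that maintains the undifferentiated state, and received no treatment. Trizol total RNA was converted to biotin cRNA and hybridized to Affymetrix 3′ arrays, which read the end of a transcript, of the design Mouse430A_2. The labels give neither the deleted part of each gene nor the cultures from which the RNA of each array was taken. The p-values therefore measure the spread between these arrays, which may be technical, and cell line and genotype cannot be told apart, since the labels name no second line of either mutant.

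Values are deposited intensities per probe set on a linear scale. Array medians were 326.7 and 332.4 in Jarid2-/- and 328.7 and 322.9 in Ezh2-/-, and Pearson's r between replicates, over probe sets that are not independent, was 0.997 and 0.9995. The median absolute log2 difference between replicate arrays was 0.135 in Jarid2-/- and 0.078 in Ezh2-/-, beside 0.136 in wild type and 0.11 in Eed-/-. The replicate difference was thus larger for Jarid2-/- than for Ezh2-/-, and no test of that was made. The 3 probe sets for bacterial sequences that are absent from the sample read between 23.8 and 148 over the 8 arrays, and the upper value was taken as the limit of what these intensities can measure.

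Of the targeted genes, Ezh2 followed its label. Ezh2 read 2926 and 3121 in Jarid2-/-, 650.1 and 743 in Ezh2-/-, 4599 and 4997 in wild type and 4972 and 5049 in Eed-/-. The Ezh2-/- arrays lay below the other 6, and the difference between the mutants was 4.34-fold (log2 2.10, SE 0.09, adjusted p = 4.1e-06), here and below from limma's moderated test with Benjamini-Hochberg adjustment over all probe sets. The Jarid2-/- arrays also lay below the wild-type and Eed-/- arrays for this gene. The brightest of 3 Jarid2 probe sets read 10219 and 8712 in Jarid2-/-, 10534 and 10707 in Ezh2-/-, 7977 and 7931 in wild type and 8847 and 8027 in Eed-/-. It was not past the threshold (log2 -0.17, SE 0.08, adjusted p = 0.18), and the other probe sets gave adjusted p-values of 0.99 and 0.059. The dimmest of the 3 was called lower in Jarid2-/- under some alternatives: with the replicate block (log2 -0.34, adjusted p = 0.033), without either wild-type array (adjusted p = 0.043) and without Jarid2-/- replicate 1 (log2 -0.49, adjusted p = 0.011). The brightest was called lower without Jarid2-/- replicate 1 (log2 -0.29, adjusted p = 0.028). On all 8 arrays no Jarid2 probe set passed the threshold, and none of these differences reached 2-fold. A 3′ probe outside a deletion would not report on it, and the label was kept as given. Eed read 11242 and 10224 in Jarid2-/- and 12213 and 12955 in Ezh2-/-, a difference not past the threshold (log2 -0.23, SE 0.07, adjusted p = 0.059). This Eed probe set was called lower in Jarid2-/- with the 4 arrays alone and with the replicate block. Its log2 difference was -0.30 without Jarid2-/- replicate 1.

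Most other subunits of the complex did not pass the threshold. Of 12 measured PRC2 genes, 2 were higher in Jarid2-/-, 1 was lower and 9 were not past the threshold. Over all genes, 8.37% were higher and 7.63% lower. Ezh2 itself was among the 2 higher genes, and of the 11 others 1 was higher and 1 lower. Suz12, the scaffold of the complex, read 7574 and 7948 in Jarid2-/- and 8164 and 7943 in Ezh2-/- (log2 -0.05, SE 0.05, adjusted p = 0.57). Mtf2, an accessory subunit that binds CpG-rich DNA, read 10859 and 10477 in Jarid2-/- and 10070.5 and 10528 in Ezh2-/- (log2 0.05, SE 0.05, adjusted p = 0.58). Neither passed the threshold, and the groups overlapped for both. Ezh1 was dimmer, at 685 and 887 in Jarid2-/- and 645 and 681 in Ezh2-/- (log2 0.23, SE 0.19, adjusted p = 0.49). The histone-binding subunits Rbbp4 and Rbbp7 and the accessory subunit Phf19 had log2 differences of 0.06, 0.12 and -0.05 (adjusted p = 0.26, 0.11 and 0.84). Epop, an accessory subunit that links the complex to Elongin, read 1537 and 1028 in Jarid2-/- and 2062 and 2190.3 in Ezh2-/- (log2 -0.75, SE 0.23, adjusted p = 0.056). It was the furthest from 0 after Ezh2, just missed the threshold, and passed it with the 4 arrays alone (adjusted p = 0.02), with the replicate block (adjusted p = 0.036), without either wild-type array (adjusted p = 0.023) and without Jarid2-/- replicate 1 (log2 -1.04, adjusted p = 0.022). Aebp2, a zinc finger subunit, was higher, at 4139 and 4235 in Jarid2-/- and 3088 and 3313 in Ezh2-/- (log2 0.39, SE 0.08, adjusted p = 0.012, 1.31-fold). Phf1, a Tudor domain subunit, was lower, at 178 and 178 in Jarid2-/- and 237 and 248 in Ezh2-/- (log2 -0.41, SE 0.11, adjusted p = 0.038, 1.36-fold). Both calls ended without single arrays: that of Aebp2 without Ezh2-/- replicate 1 (adjusted p = 0.13), Ezh2-/- replicate 2 (adjusted p = 0.063) or Jarid2-/- replicate 2 (adjusted p = 0.072), and that of Phf1 without Ezh2-/- replicate 1 (adjusted p = 0.15), Ezh2-/- replicate 2 (adjusted p = 0.21), Jarid2-/- replicate 1 (adjusted p = 0.094) or Jarid2-/- replicate 2 (adjusted p = 0.15). Among 15 genes of Polycomb repressive complex 1, which ubiquitinates histone H2A, 1 was higher and 2 were lower, beside the same shares over all genes. Kdm2b, the subunit that binds unmethylated CpG DNA, was lower, at 2961 and 2602 in Jarid2-/- and 4359 and 4777 in Ezh2-/- (log2 -0.71, SE 0.10, adjusted p = 0.0015, 1.64-fold).

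**Figure D1:**
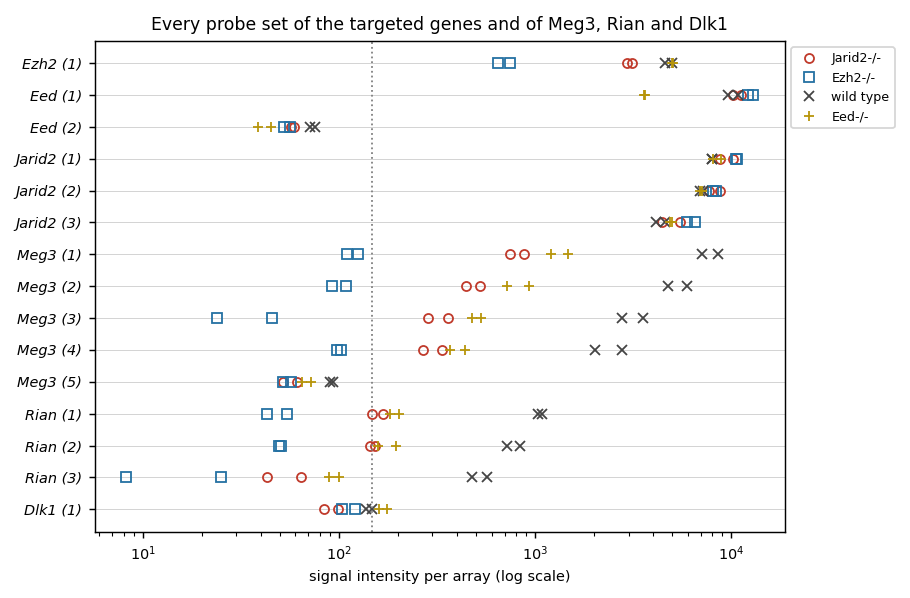
Intensity on each of the 8 arrays (log axis, 1 point per array, coloured by group) for every probe set of the targeted genes and of Meg3, Rian and Dlk1, numbered from the brightest in wild type, with the highest negative control as a dotted line. Ezh2 was lowest on the Ezh2-/- arrays, the Jarid2-/- arrays overlapped others for Jarid2, and Meg3 read 875 and 744 in Jarid2-/- against 125 and 110.1 in Ezh2-/-.

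Across the array, 3404 of 22626 probe sets (15.0%) differed between Jarid2-/- and Ezh2-/- at an adjusted p under 0.05. Of these, 1757 (7.77%) were higher and 1647 (7.28%) were lower in Jarid2-/-, and at 2-fold or more the counts were 286 (1.26%) and 206 (0.910%). Called probe sets were therefore nearly balanced in direction, and the median log2 difference over all probe sets was -0.01 with a median SE of 0.12. With each gene represented by its brightest probe set, 1982 of 12393 genes (16%) were called, 1037 higher (8.37%) and 945 lower (7.63%), and 183 (1.48%) and 116 (0.936%) at 2-fold or more. The number of calls rested on single arrays: 1218 probe sets were called without Ezh2-/- replicate 1, 1124 without Ezh2-/- replicate 2 and 1543 without Jarid2-/- replicate 2. The larger differences were steadier, since 237 of the 299 genes called at 2-fold or more held their call without each array in turn, against 580 of all 1982, and none of the 1982 changed sign under the alternatives run. The lack of sign changes was largely fixed in advance, since the genes were called on these same arrays. Where the groups do not overlap, leaving out 1 array cannot reverse the sign. Below, a call is said to have held where it passed the threshold without each array in turn, and other members are given by their counts.

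**Figure D2:**
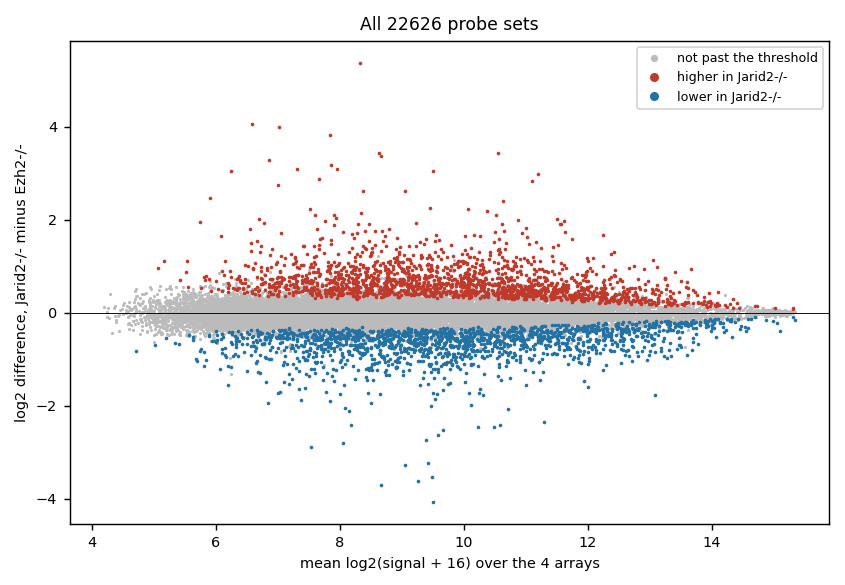
Log2 difference of Jarid2-/- minus Ezh2-/- against mean log2 intensity for the 22626 probe sets, with called probe sets coloured by direction. Calls lie on both sides of 0, 1757 higher and 1647 lower.

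Some differences followed the order of genes on chromosomes, described here after the values were seen and placed by RefSeq on GRCm38.p6, since neither labels nor array files name a build. Among 5813 genes with a mean signal above 500, 12.4% were called higher and 11.3% lower, and the median log2 difference was -0.01. On chromosome 6, which carries Ezh2, the median over 267 genes was -0.145, 35.6% were lower and 8.99% were higher. A running median over 15 neighbouring genes passed 0.3 in size along 4 runs of at least 10 genes. On chromosome 6 a run of 23 genes from Chchd3 to Zfp212, which includes Ezh2, had a median of -0.60, with 16 lower and 1 higher, Ezh2 itself. A longer run of 76 genes from Snx10 to Mcm2 had a median of -0.63, with 64 lower. Against the wild-type mean, the chromosome 6 runs stood at medians of -0.52 and -0.51 in Jarid2-/- and at 0.09 and 0.14 in Ezh2-/-, so the Jarid2-/- arrays were the ones away from wild type.

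The runs on the other chromosomes went with Ezh2-/- instead. On chromosome 3, the last 24 such genes of the chromosome, from Pdlim5 to Depdc1a, had a median of 0.90, with 20 called higher in Jarid2-/-. Their medians against wild type were -0.82 in Ezh2-/- and 0.10 in Jarid2-/-. On chromosome 14, 39 genes from Polr3d to Zic5 had a median of -0.43, with 28 lower, and stood at 0.55 in Ezh2-/- and at -0.03 in Jarid2-/- against wild type. Both arrays of a group gave nearly the same run median: -0.84 and -0.82 in Ezh2-/- on chromosome 3, 0.53 and 0.55 in Ezh2-/- on chromosome 14, and -0.48 and -0.54 in Jarid2-/- along the longer chromosome 6 run. The runs were cut on the difference between these same arrays, so that agreement was in part fixed in advance. The rest of chromosomes 3 and 14 had medians of 0.00 and -0.03. The files hold no measurement of DNA, and the cause of these runs was not tested. Outside the runs, 1005 of 11990 genes (8.38%) were higher and 821 (6.85%) lower, so most calls came from other positions. Over genes with a mean signal above 500, chromosomes without such a run also differed in their shares. The share called lower ran from 2.92% on chromosome 11 to 14.2% on chromosomes 7 and 9. The share called higher ran from 8.73% on chromosome 7 to 21.1% on X, and was 18.7% on chromosome 11. No chromosome was tested as a whole.

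Named examples along the chromosome 6 runs were lower in Jarid2-/- on both arrays. Rab7, a GTPase of late endosomes, read 3337 and 3228 in Jarid2-/- and 6061 and 5949.7 in Ezh2-/- (log2 -0.87, SE 0.06, adjusted p = 5.1e-05, 1.83-fold). Skap2, an adaptor of integrin signalling, read 939 and 907 in Jarid2-/- and 2419 and 2627 in Ezh2-/- (log2 -1.44, SE 0.10, adjusted p = 5.5e-05, 2.73-fold). Mkrn1, a ubiquitin ligase, read 9025 and 8891 in Jarid2-/- and 14408 and 14379 in Ezh2-/- (log2 -0.68, SE 0.05, adjusted p = 5.9e-05, 1.61-fold), and 5 of its 5 probe sets were called lower. These genes were named for their small p, so the lack of overlap between their groups was largely fixed by that choice.

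**Figure D3:**
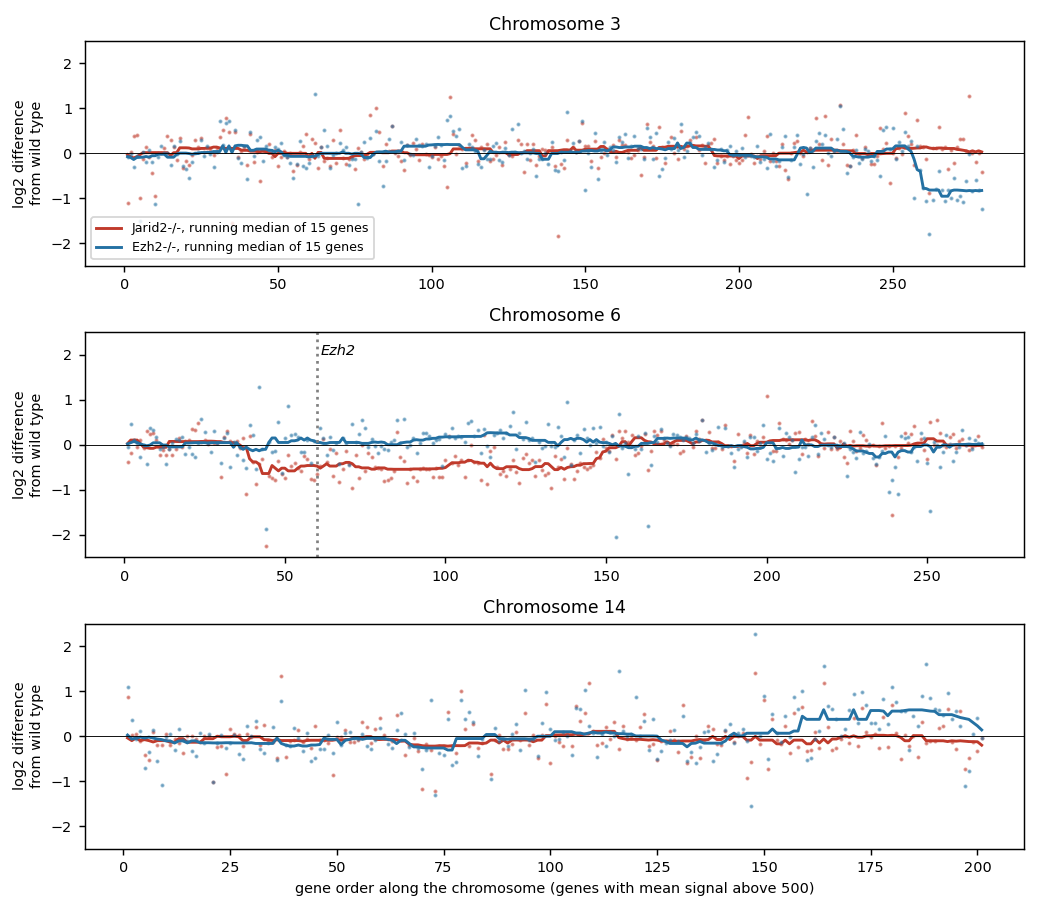
Log2 difference from the wild-type mean for Jarid2-/- and Ezh2-/- (points, genes with a mean signal above 500) in gene order along chromosomes 3, 6 and 14, with the running median over 15 genes as lines and Ezh2 as a dotted line. The Ezh2-/- line leaves 0 at the end of chromosome 3 (run median -0.82) and on chromosome 14 (0.55), and the Jarid2-/- line leaves it on chromosome 6 (-0.52 and -0.51).

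The largest differences in favour of Jarid2-/- came in part from genes that were dim in Ezh2-/- and bright in the other 3 groups. By size, the 20 genes were Dpys, Eif2s3y, Cd99, Fxyd6, Rpl39l, Mep1b, Slc39a8, Gab1, Gbp2, Meg3, Acot1, Rhox6, Ly75, Prrc1, Prom1, Ezh2, Retreg1, Zfp991, Ldhb and Tex14, from log2 5.38 to 1.94, and the call of each of the 20 held. Groups that do not overlap were a condition of being named here and in the other direction. In 11 of them the Ezh2-/- mean lay within the negative controls, so that a bound is given as at least the fold named and the fitted log2 difference has no exact meaning. In bulk RNA, fewer cells with a transcript and less transcript per cell cannot be told apart, here or in any later result.

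Dpys, dihydropyrimidinase of pyrimidine breakdown, read 1779.8 and 2362 in Jarid2-/-, 36.9 and 30.4 in Ezh2-/-, 2409 and 2979 in wild type and 601 and 614 in Eed-/-. Only the Ezh2-/- arrays lay within the negative controls (log2 5.38, SE 0.16, adjusted p = 5e-07, at least 14-fold). Cd99, a surface glycoprotein, read 749 and 957 in Jarid2-/-, 48.6 and 41.0 in Ezh2-/-, 634 and 610.1 in wild type and 1844 and 1826 in Eed-/- (log2 3.83, SE 0.13, adjusted p = 8.1e-07, at least 5.77-fold). Rpl39l, a ribosomal protein variant best known from testis, read 5469 and 4444 in Jarid2-/-, 426 and 458 in Ezh2-/-, 6004 and 5412 in wild type and 6314 and 6319.9 in Eed-/- (log2 3.43, SE 0.11, adjusted p = 5.4e-07, 11.2-fold). For each of these genes the Ezh2-/- arrays were below the other 6. Gab1, a docking adaptor of receptor tyrosine kinases, read 6845 and 6332 in Jarid2-/-, 791 and 834 in Ezh2-/-, 7972 and 7780.4 in wild type and 4227 and 3991 in Eed-/- (log2 2.99, SE 0.07, adjusted p = 2.7e-07, 8.11-fold). Fxyd6, a regulator of the sodium pump, read 952 and 1746 in Jarid2-/-, 106 and 101 in Ezh2-/-, 1559 and 2093 in wild type and 1475 and 1949 in Eed-/- (log2 3.45, SE 0.26, adjusted p = 9.2e-05, at least 9.12-fold). The Jarid2-/- arrays of Fxyd6 differed from each other more than the Ezh2-/- arrays did.

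Some other genes of this group were brightest in Jarid2-/-. Acot1, an acyl-CoA thioesterase, read 3071 and 4233 in Jarid2-/-, 696 and 643 in Ezh2-/-, 721 and 1268 in wild type and 1163 and 1234 in Eed-/- (log2 2.40, SE 0.24, adjusted p = 0.0003, 5.45-fold). Mep1b, a subunit of the metalloprotease meprin, read 904 and 517 in Jarid2-/-, 62.4 and 60.2 in Ezh2-/-, 254 and 179 in wild type and 501 and 419.8 in Eed-/- (log2 3.18, SE 0.24, adjusted p = 9.2e-05, at least 4.8-fold). Ly75, an endocytic receptor, read 1876 and 2840.4 in Jarid2-/-, 506 and 456 in Ezh2-/-, 1079.6 and 1758 in wild type and 939 and 1232 in Eed-/- (log2 2.23, SE 0.25, adjusted p = 0.00058, 4.9-fold). In these 3 genes both Jarid2-/- arrays lay above the other 6. Ldhb, lactate dehydrogenase B, read 4913 and 7815 in Jarid2-/-, 1707 and 1422 in Ezh2-/-, 3565 and 5359 in wild type and 4463 and 4699 in Eed-/- (log2 1.98, SE 0.23, adjusted p = 0.00064, 4.07-fold). Prom1, a membrane protein also used as a stem cell marker, read 506 and 868 in Jarid2-/-, 162 and 116 in Ezh2-/-, 904 and 921 in wild type and 909 and 1066 in Eed-/- (log2 2.15, SE 0.23, adjusted p = 0.00044, at least 4.64-fold). Its Jarid2-/- arrays lay below the wild-type and Eed-/- arrays. Tex14, a component of intercellular bridges between germ cells, read 946 and 1406 in Jarid2-/- and 285 and 291 in Ezh2-/- (log2 1.94, SE 0.21, adjusted p = 0.0005, 4.08-fold).

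The largest differences in the other direction were, by size, 2210409E12Rik, Abca1, Apoa2, Tchh, Meis1, Htra1, Sox7, Gpx2, Cbr3, Esam, Hopx, Tex15, Alox5ap, Sdc2, Mcam, Gbx2, Tgds, Mfap5, Tgm1 and Ifngr2, from log2 -4.06 to -1.73. Of these calls 19 held, and that of Gbx2, a homeobox factor, ended without Ezh2-/- replicate 2 (log2 -1.60, adjusted p = 0.056). In 6 the Jarid2-/- mean lay within the negative controls. Tgds (log2 -1.75) lies in the chromosome 14 run. Abca1, the exporter of cholesterol to apolipoproteins, read 243 and 155 in Jarid2-/-, 2401 and 2452 in Ezh2-/-, 961 and 806 in wild type and 778 and 977 in Eed-/- (log2 -3.54, SE 0.19, adjusted p = 1.8e-05, 12.2-fold). Apoa2, an apolipoprotein of liver and visceral endoderm, read 160.4 and 148 in Jarid2-/-, 1612 and 1639 in Ezh2-/-, 125 and 126 in wild type and 721 and 549 in Eed-/- (log2 -3.27, SE 0.13, adjusted p = 2.4e-06, 10.5-fold). 2210409E12Rik, whose product is not annotated in the files, read 189.6 and 138 in Jarid2-/-, 3046 and 2849 in Ezh2-/-, 151 and 143 in wild type and 1641 and 2822 in Eed-/- (log2 -4.06, SE 0.23, adjusted p = 2.1e-05, 18-fold). Wild type was near Jarid2-/- for Apoa2 and 2210409E12Rik and between the mutants for Abca1.

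Transcription factors and developmental genes were part of this group. Meis1, a homeobox cofactor of Hox proteins, read 101 and 71.2 in Jarid2-/-, 682 and 682 in Ezh2-/-, 86.9 and 74.8 in wild type and 397 and 398 in Eed-/- (log2 -2.79, SE 0.14, adjusted p = 1.2e-05, at least 4.61-fold). Sox7, a factor of endoderm and vessels, read 152 and 78.5 in Jarid2-/-, 633 and 678 in Ezh2-/-, 50.7 and 42.8 in wild type and 348 and 289 in Eed-/- (log2 -2.41, SE 0.23, adjusted p = 0.00026, at least 4.43-fold). Hopx, an atypical homeodomain protein, read 915 and 696 in Jarid2-/-, 3355 and 3463 in Ezh2-/-, 806 and 589.7 in wild type and 1311 and 1173 in Eed-/- (log2 -2.07, SE 0.17, adjusted p = 0.00012, 4.23-fold). These 3 genes shared an order of levels in which Ezh2-/- was brightest, Eed-/- came next, and Jarid2-/- and wild type were lowest. Htra1, a secreted serine protease, read 373 and 280.3 in Jarid2-/-, 1955 and 1917 in Ezh2-/-, 442 and 358 in wild type and 1039.9 and 1243 in Eed-/- (log2 -2.52, SE 0.16, adjusted p = 3.9e-05, 5.93-fold). Tchh, a structural protein of hair follicles, read 55.9 and 49.0 in Jarid2-/-, 546 and 444 in Ezh2-/-, 58.7 and 34.1 in wild type and 403 and 307 in Eed-/- (log2 -2.89, SE 0.20, adjusted p = 6e-05, at least 3.35-fold), in the same order. Gpx2, a glutathione peroxidase, read 721 and 586 in Jarid2-/-, 3520.5 and 3523 in Ezh2-/-, 339.6 and 290.5 in wild type and 1320.1 and 1150.4 in Eed-/- (log2 -2.41, SE 0.13, adjusted p = 1.7e-05, 5.39-fold). Cbr3, a carbonyl reductase, read 1174 and 1023 in Jarid2-/-, 6122 and 5162 in Ezh2-/-, 1481 and 1235 in wild type and 1163 and 999.8 in Eed-/- (log2 -2.34, SE 0.13, adjusted p = 2.3e-05, 5.14-fold), where the Ezh2-/- arrays stood above the other 6. Mcam, an adhesion molecule, read 363 and 386 in Jarid2-/-, 1255 and 1548 in Ezh2-/-, 357 and 334 in wild type and 351 and 332 in Eed-/- (log2 -1.85, SE 0.12, adjusted p = 4.3e-05, 3.74-fold). Ifngr2, a chain of the interferon gamma receptor, read 164 and 191 in Jarid2-/-, 673 and 582 in Ezh2-/-, 154 and 182 in wild type and 190.3 and 188 in Eed-/- (log2 -1.73, SE 0.12, adjusted p = 6.5e-05, 3.53-fold), both with the same arrays on top.

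**Figure D4:**
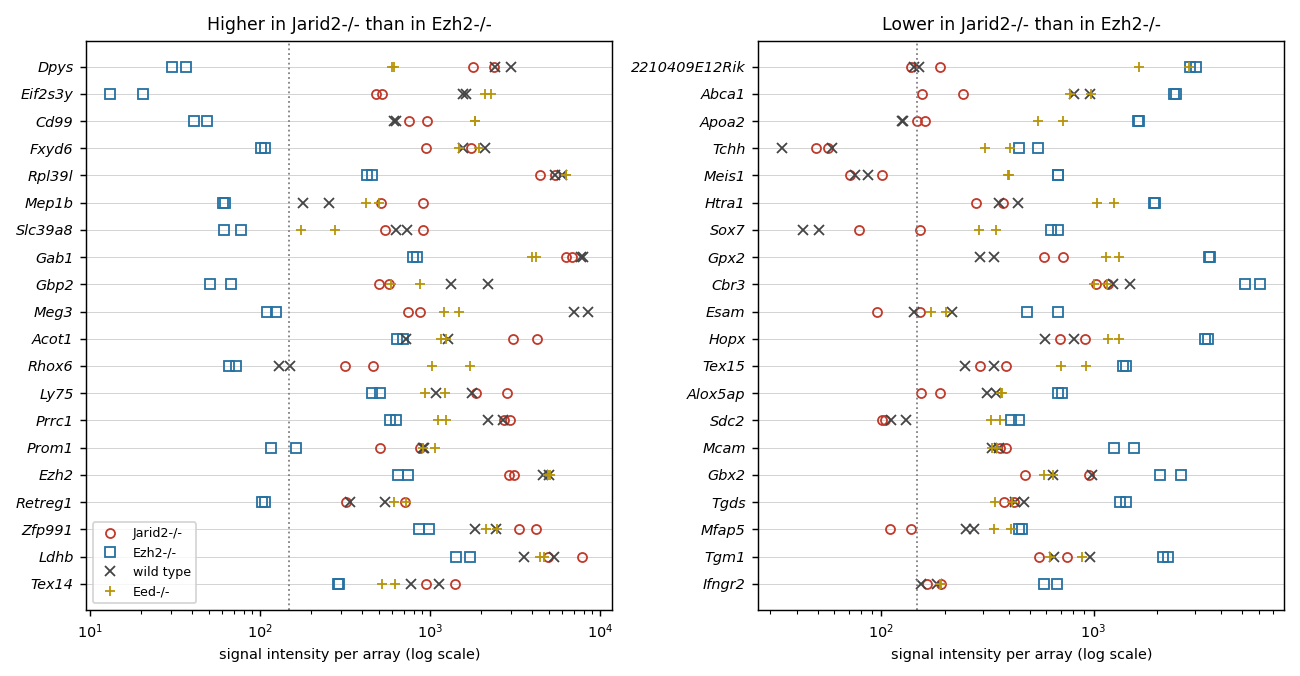
Intensity on each array (log axis, 1 point per array, coloured by group) for the genes with the largest differences in each direction, with the highest negative control as a dotted line. Dpys reads 1779.8 and 2362 in Jarid2-/- against 36.9 and 30.4 in Ezh2-/-, and Meis1 reads 101 and 71.2 against 682 and 682.

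Because the complex is known for binding CpG-rich promoters, the promoters of 6 called genes are printed as examples of the range of CpG content, and were chosen with their values known. Each is 300 bases from RefSeq on GRCm38.p6, from 250 bases before to 50 after a start of the gene. Bases run 5′ to 3′ on the gene's strand, with CG dinucleotides in capitals. Where a gene had several promoters, here and below, the one with the most CG was taken. Those of Meg3 (chr12:109540746-109541045, plus strand), Olig2 (chr16:91225300-91225599, plus strand) and Rpl39l (chr16:10169978-10170277, plus strand) belong to genes higher in Jarid2-/-, and hold 13, 25 and 17 CG. Those of Apoa2 (chr1:171224804-171225103, plus strand), Meis1 (chr11:19018920-19019219, minus strand) and Gpx2 (chr12:76795505-76795804, minus strand) belong to genes lower in Jarid2-/-, and hold 3, 15 and 0 CG. The examples do not stand for their direction: over the largest differences with a promoter in the table, the median was 15.5 CG for 14 higher genes and 21.0 for 13 lower genes.
Meg3: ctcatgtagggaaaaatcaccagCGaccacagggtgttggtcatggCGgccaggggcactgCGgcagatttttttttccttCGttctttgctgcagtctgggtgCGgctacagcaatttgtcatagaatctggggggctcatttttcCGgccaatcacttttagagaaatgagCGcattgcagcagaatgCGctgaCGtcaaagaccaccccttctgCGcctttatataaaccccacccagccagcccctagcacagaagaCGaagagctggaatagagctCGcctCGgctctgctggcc
Olig2: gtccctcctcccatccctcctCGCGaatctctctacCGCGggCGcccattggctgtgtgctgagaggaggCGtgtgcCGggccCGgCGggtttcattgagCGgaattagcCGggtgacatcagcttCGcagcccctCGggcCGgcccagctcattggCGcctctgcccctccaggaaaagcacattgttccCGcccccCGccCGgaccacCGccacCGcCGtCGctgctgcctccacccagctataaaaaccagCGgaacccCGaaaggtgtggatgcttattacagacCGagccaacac
Rpl39l: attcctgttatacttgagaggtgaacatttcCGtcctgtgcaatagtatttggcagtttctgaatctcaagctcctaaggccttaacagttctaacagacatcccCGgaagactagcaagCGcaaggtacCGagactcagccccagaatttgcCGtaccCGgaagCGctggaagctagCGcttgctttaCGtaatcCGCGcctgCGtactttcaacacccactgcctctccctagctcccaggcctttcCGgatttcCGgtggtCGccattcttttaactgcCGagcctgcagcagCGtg
Apoa2: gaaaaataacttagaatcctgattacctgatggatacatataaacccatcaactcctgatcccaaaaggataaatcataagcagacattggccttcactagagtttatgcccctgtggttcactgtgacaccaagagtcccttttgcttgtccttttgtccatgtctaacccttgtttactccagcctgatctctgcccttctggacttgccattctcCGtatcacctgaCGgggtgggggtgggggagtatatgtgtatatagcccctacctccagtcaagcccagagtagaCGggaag
Meis1: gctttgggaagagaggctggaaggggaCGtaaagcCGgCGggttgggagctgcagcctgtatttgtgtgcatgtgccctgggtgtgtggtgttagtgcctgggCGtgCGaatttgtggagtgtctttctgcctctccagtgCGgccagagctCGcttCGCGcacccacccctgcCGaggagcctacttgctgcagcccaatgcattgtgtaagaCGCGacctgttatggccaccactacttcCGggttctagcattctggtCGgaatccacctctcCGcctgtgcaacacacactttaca
Gpx2: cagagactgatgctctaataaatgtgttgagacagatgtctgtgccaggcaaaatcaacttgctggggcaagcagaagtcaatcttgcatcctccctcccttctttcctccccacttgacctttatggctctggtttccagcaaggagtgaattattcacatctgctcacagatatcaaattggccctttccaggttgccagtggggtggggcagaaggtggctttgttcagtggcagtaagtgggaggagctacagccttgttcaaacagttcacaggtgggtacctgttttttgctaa

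A promoter was available for 9887 of the 12393 genes. The median number of CG per promoter was 19 over these genes, 24 over those with a signal above 500, 23 over genes called higher and 22 over genes called lower, and 20 and 21 at 2-fold or more. At least 15 CG were present in 63.5% of all promoters, 83.5% of those of brighter genes, 77.7% of those called higher and 75.5% of those called lower. At 2-fold or more the shares were 68.1% and 71.1%. Genes called in either direction thus lay between all genes and brighter genes in CG content, and neither direction stood far from the other. The motif searched was CG, which reads the same on both strands, and the counts describe the sequence window without showing that a protein is bound there.

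Maternally expressed RNAs of the imprinted Dlk1-Dio3 region were higher in Jarid2-/-. Of the 3 measured genes, 2 were higher and 0 lower in the limma fit, with 0 lower at an unadjusted p under 0.05 as well. The shares over all genes were 8.37% higher and 7.63% lower. Meg3, a long noncoding RNA of the maternal allele, read 875 and 744 in Jarid2-/-, 125 and 110.1 in Ezh2-/-, 7063 and 8553 in wild type and 1475 and 1202 in Eed-/- (log2 2.63, SE 0.14, adjusted p = 1.8e-05, at least 5.47-fold). Rian, a snoRNA host transcript of the same allele, read 167 and 148 in Jarid2-/-, 54.4 and 42.9 in Ezh2-/-, 1036 and 1080.0 in wild type and 203 and 181 in Eed-/- (log2 1.43, SE 0.12, adjusted p = 0.00014, at least 1.07-fold). Of their probe sets, 4 of 5 for Meg3 and 3 of 3 for Rian were called higher. The call of 1 Rian probe set did not hold (log2 0.75 without Ezh2-/- replicate 2 and 0.91 without Jarid2-/- replicate 1). At 167 and 148, Rian also read near the highest negative control in Jarid2-/-. Both mutants lay far below wild type for Meg3, and Ezh2-/- lay within the controls. Dlk1, a paternally expressed ligand-like protein, read within the controls on all 4 arrays and was not past the threshold (adjusted p = 0.19).

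The counts of each list here and below stand beside 8.37% higher and 7.63% lower over all genes. Among 37 other imprinted genes, 3 were higher, 5 lower and 29 not past the threshold, and 2 calls held. Ndn, a paternally expressed growth regulator of the necdin family, read 598 and 526 in Jarid2-/-, 1307 and 1315 in Ezh2-/-, 1416 and 1269 in wild type and 1998 and 2202 in Eed-/- (log2 -1.20, SE 0.11, adjusted p = 0.0002, 2.33-fold). Jarid2-/- was the lower group and Ezh2-/- was at the wild-type level. Slc38a4, a paternally expressed amino acid transporter, read 2107 and 2568 in Jarid2-/-, 965 and 962 in Ezh2-/-, 2912 and 2965 in wild type and 2764 and 3849 in Eed-/- (log2 1.26, SE 0.15, adjusted p = 0.0008, 2.43-fold), with Ezh2-/- lowest. Igf2, a fetal growth factor, read 278 and 227 in Jarid2-/- and 553 and 354 in Ezh2-/- (log2 -0.78, SE 0.41, adjusted p = 0.25). Snrpn, a splicing protein of the Prader-Willi region, read 256 and 207 in Jarid2-/- and 199 and 200.4 in Ezh2-/- (log2 0.19, SE 0.12, adjusted p = 0.34).

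In the DNA methylation machinery 1 of 16 measured genes was higher, 6 were lower and 9 were not past the threshold, with a median log2 difference of -0.14 beside -0.01 over all genes, and 3 calls held. Dnmt3l, the catalytically inactive cofactor of the de novo enzymes, read 7875 and 6115 in Jarid2-/-, 13032 and 13359 in Ezh2-/-, 6144 and 4554 in wild type and 7532 and 7813 in Eed-/- (log2 -0.93, SE 0.14, adjusted p = 0.0028, 1.89-fold). Mbd2, a reader of methylated CpG, read 659 and 593 in Jarid2-/-, 1399.9 and 1396 in Ezh2-/-, 759 and 572 in wild type and 896 and 1127 in Eed-/- (log2 -1.14, SE 0.15, adjusted p = 0.0015, 2.23-fold). Dppa3, which protects the early embryo's maternal methylation, read 3647 and 4135 in Jarid2-/-, 1526 and 1422 in Ezh2-/-, 1428 and 2358 in wild type and 4971 and 5191 in Eed-/- (log2 1.39, SE 0.19, adjusted p = 0.0016, 2.64-fold). Ezh2-/- thus had more of the cofactor and the reader and less Dppa3. The DNA methyltransferases Dnmt1, Dnmt3a and Dnmt3b did not pass the threshold. Dnmt1, the maintenance enzyme, read 5219 and 5984 in Jarid2-/- and 5373 and 5154 in Ezh2-/- (log2 0.09, SE 0.08, adjusted p = 0.54). Dnmt3a, a de novo enzyme, read 5051 and 4000.3 in Jarid2-/- and 3223 and 3372 in Ezh2-/- (log2 0.45, SE 0.14, adjusted p = 0.063). It was called higher in Jarid2-/- without Eed-/- replicate 1 (adjusted p = 0.037), Eed-/- replicate 2 (adjusted p = 0.036) or Jarid2-/- replicate 2 (log2 0.61, adjusted p = 0.043). Dnmt3b, its relative, read 14331 and 13486 in Jarid2-/- and 13312 and 13162 in Ezh2-/- (log2 0.07, SE 0.05, adjusted p = 0.43).

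Core stem cell factors were present in both mutants at high intensity. The summed intensity of 8 stem cell markers was 102020 and 102360 in Jarid2-/- and 108978 and 110410 in Ezh2-/-. Sox2, a core pluripotency factor, read 15350.4 and 17070.4 in Jarid2-/- and 15046 and 15384 in Ezh2-/- (log2 0.09, SE 0.06, adjusted p = 0.4), and Nanog, another, read 8589 and 8643 in Jarid2-/- and 7059 and 7476 in Ezh2-/- (log2 0.25, SE 0.11, adjusted p = 0.19). Neither passed the threshold. Pou5f1, the core factor OCT4, read 15411 and 13201 in Jarid2-/- and 17293 and 17243 in Ezh2-/- and was called lower in Jarid2-/- (log2 -0.28, SE 0.07, adjusted p = 0.034, 1.21-fold). That call ended without Ezh2-/- replicate 1 or 2 (adjusted p = 0.17 for each), Eed-/- replicate 1 or 2 (adjusted p = 0.051 for each) or Jarid2-/- replicate 2 (log2 -0.16, adjusted p = 0.19). Zfp42, which encodes the stem cell zinc finger protein REX1, read 3726 and 3283 in Jarid2-/-, 3714 and 3989 in Ezh2-/-, 18004 and 18757 in wild type and 17259.9 and 18659.9 in Eed-/-. Both mutants lay below wild type and Eed-/-, without a difference past the threshold between them (log2 -0.14, SE 0.07, adjusted p = 0.25). The full list of 27 pluripotency genes had 6 higher, 4 lower and 17 not past the threshold, with a median of 0.03, and 6 calls held. Of these, 5 were higher in Jarid2-/-.

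Klf2, a Krüppel-like factor of the naive state, read 8834 and 9171 in Jarid2-/-, 4704 and 4519 in Ezh2-/-, 10707 and 12150.1 in wild type and 8374 and 8198 in Eed-/- (log2 0.96, SE 0.07, adjusted p = 5.6e-05, 1.95-fold). Fbxo15, a stem cell F-box gene, read 5829 and 5862 in Jarid2-/-, 3074 and 2889 in Ezh2-/-, 7389 and 8568 in wild type and 8336 and 8006 in Eed-/- (log2 0.97, SE 0.08, adjusted p = 0.00011, 1.96-fold). Tcl1, a coactivator of the kinase AKT, read 5176 and 6924 in Jarid2-/-, 2835 and 2677 in Ezh2-/-, 3233 and 4010.2 in wild type and 4601 and 4273 in Eed-/- (log2 1.12, SE 0.14, adjusted p = 0.001, 2.2-fold). In these 3 genes Ezh2-/- was the lowest of the 4 groups. Lefty1, a secreted inhibitor of Nodal, read 2930.4 and 3073 in Jarid2-/-, 1192 and 522 in Ezh2-/-, 2279 and 2500.0 in wild type and 6213 and 3333 in Eed-/- (log2 1.90, SE 0.36, adjusted p = 0.0077, 3.5-fold), and its Ezh2-/- arrays differed from each other more than its Jarid2-/- arrays did. Dppa5a, an RNA-binding stem cell protein, was lower in Jarid2-/- by a small amount, 31435 and 31474 in Jarid2-/- and 36220.3 and 36399 in Ezh2-/- (log2 -0.21, SE 0.03, adjusted p = 0.0042, 1.15-fold). Of 15 genes of the primed epiblast, 1 was higher and 2 were lower and no call held; Fgf5, a marker of that state, read 199.6 and 225 in Jarid2-/- and 185 and 181 in Ezh2-/- (log2 0.20, SE 0.10, adjusted p = 0.24).

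Markers of other cell types were summed per array. Summed intensity of 8 endoderm markers was 1234 and 1056 in Jarid2-/- and 1664 and 1763 in Ezh2-/-, where 4 of the 8 read within the negative controls on all 4 arrays. Sox7 alone gave 152 and 78.5 of the Jarid2-/- sums and 633 and 678 of the Ezh2-/- sums, and no other endoderm marker of the 8 passed the threshold. For 9 fibroblast or feeder cell markers the sums were 2080 and 2086 against 1568 and 1469, with 5 of the 9 within the controls, beside 12260 and 9267 in wild type. Tagln, a smooth muscle actin-binding protein, carried that gap at 989 and 1109.5 in Jarid2-/- and 402 and 312 in Ezh2-/- (log2 1.52, SE 0.32, adjusted p = 0.013, 2.94-fold), and its call ended without Ezh2-/- replicate 1 (adjusted p = 0.052), Ezh2-/- replicate 2 (adjusted p = 0.11) or Jarid2-/- replicate 2 (adjusted p = 0.077). The sums for 5 trophectoderm markers were 499 and 530 against 618 and 545, with 4 within the controls, and those for 3 mesoderm markers 594 and 663 against 675 and 658. The 6 neural markers summed to 8210 and 8904 in Jarid2-/- and to 4142 and 4126 in Ezh2-/-. Olig1, Olig2 and Tubb3 carried that difference, while Dcx, Pax6 and Sox1 did not pass the threshold, with log2 differences of -0.05, 0.09 and 0.05. The part of other cells in any result was not tested.

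Of 33 neural and ectoderm regulators measured, 5 were higher, 6 lower and 22 not past the threshold, beside 8.37% higher and 7.63% lower over all genes, and 7 calls held. Olig1, a basic helix-loop-helix factor of oligodendrocyte precursors, read 4058 and 5072 in Jarid2-/-, 1633 and 1734 in Ezh2-/-, 57.7 and 100.4 in wild type and 3807 and 3998 in Eed-/- (log2 1.42, SE 0.19, adjusted p = 0.0016, 2.71-fold). Olig2, its neighbour on chromosome 16 and paralog, read 1858 and 1806 in Jarid2-/-, 974 and 968 in Ezh2-/-, 30.2 and 29.8 in wild type and 1321 and 1400.3 in Eed-/- (log2 0.90, SE 0.09, adjusted p = 0.00034, 1.89-fold). Tubb3, a neuronal tubulin, read 1604 and 1407 in Jarid2-/-, 890.4 and 794 in Ezh2-/-, 1609 and 1423 in wild type and 1668 and 1452 in Eed-/- (log2 0.83, SE 0.12, adjusted p = 0.0022, 1.79-fold). Sox11, a factor of neural progenitors, read 2250.0 and 2387 in Jarid2-/-, 1061 and 1229 in Ezh2-/-, 1964 and 1635 in wild type and 802 and 948 in Eed-/- (log2 1.01, SE 0.13, adjusted p = 0.0011, 2.03-fold). These 4 were higher in Jarid2-/-, and Olig1 and Olig2, bright in all mutants, lay within the negative controls in wild type. Neurod1, a factor of neuronal differentiation, was lower, at 328 and 321 in Jarid2-/-, 697 and 648 in Ezh2-/-, 795 and 979.5 in wild type and 560.3 and 486 in Eed-/- (log2 -1.01, SE 0.13, adjusted p = 0.00093, 2.07-fold). Zic1, a zinc finger factor of the dorsal neural tube, read 75.6 and 86.8 in Jarid2-/-, 219.8 and 169 in Ezh2-/-, 74.8 and 54.2 in wild type and 560.4 and 599 in Eed-/- (log2 -1.11, SE 0.16, adjusted p = 0.0019, at least 1.31-fold). Stmn2, a microtubule regulator of axons, read 6039.5 and 5076 in Jarid2-/-, 11189 and 11252 in Ezh2-/-, 12260.5 and 11700.4 in wild type and 12852 and 12613 in Eed-/- (log2 -1.02, SE 0.07, adjusted p = 7.4e-05, 2.02-fold). The neural list therefore did not move one way, and its median was -0.03.

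Of 28 endoderm markers measured, 1 was higher in Jarid2-/-, 4 were lower and 23 were not past the threshold, beside 8.37% higher and 7.63% lower over all genes, and the 4 lower calls held. The higher gene was Lamb1, a laminin chain, whose call did not hold (log2 0.36 without Ezh2-/- replicate 1 and 0.24 without Jarid2-/- replicate 2). Beside Apoa2 and Sox7, Lama1, a laminin chain of basement membrane, read 1268 and 1359 in Jarid2-/-, 3008 and 3202 in Ezh2-/-, 575 and 625 in wild type and 1230.2 and 1126 in Eed-/- (log2 -1.23, SE 0.10, adjusted p = 0.00011, 2.36-fold). Sparc, a matrix glycoprotein abundant in parietal endoderm, read 3254 and 3031 in Jarid2-/-, 5165 and 5354 in Ezh2-/-, 7726 and 6835 in wild type and 6335 and 7946 in Eed-/- (log2 -0.74, SE 0.11, adjusted p = 0.002, 1.67-fold). The factors that specify primitive endoderm did not follow: Gata6 read 267 and 221 in Jarid2-/- and 239 and 257 in Ezh2-/- (log2 -0.03, SE 0.13, adjusted p = 0.92). Gata4 read 274 and 218 in Jarid2-/- and 241 and 250.3 in Ezh2-/- (adjusted p = 0.99). Among 26 genes of primitive streak and mesoderm, 0 were higher in the limma fit (0 at an unadjusted p under 0.05) and 3 were lower, with no call that held. Of 31 Hox genes, 0 were higher (2 at an unadjusted p under 0.05), 1 was lower and 23 had both means within the controls.

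Called germline genes lay in both directions, and the trophectoderm calls that held were higher in Jarid2-/-. Tfap2c, a factor of trophectoderm and germ cells, read 3185 and 4721 in Jarid2-/-, 1382 and 1286 in Ezh2-/-, 3202 and 4484 in wild type and 4162 and 3963 in Eed-/- (log2 1.53, SE 0.19, adjusted p = 0.00099, 2.96-fold), one of 3 higher and 1 lower among 20 trophectoderm genes, of which 2 higher and 0 lower calls held. The lower gene was Tfap2a, a related factor (log2 -0.55, SE 0.10, adjusted p = 0.007, 1.52-fold), whose call ended without Ezh2-/- replicate 1 (adjusted p = 0.081) or Jarid2-/- replicate 2 (adjusted p = 0.053). Rhox6, an X-linked homeobox gene of placenta and germ cells, read 464 and 315 in Jarid2-/-, 65.6 and 71.8 in Ezh2-/-, 129 and 151 in wild type and 1019.9 and 1718 in Eed-/- (log2 2.24, SE 0.24, adjusted p = 0.00044, at least 2.63-fold). Of 20 germline genes, 4 were higher and 5 lower, and 6 calls held. Rhox5, a relative of Rhox6, read 3081 and 2163 in Jarid2-/-, 1005 and 977 in Ezh2-/-, 1857 and 1844 in wild type and 2902 and 3418 in Eed-/- (log2 1.37, SE 0.15, adjusted p = 0.00055, 2.65-fold). Dnd1, an RNA-binding protein of germ cells, read 559 and 564 in Jarid2-/-, 336 and 319 in Ezh2-/-, 502 and 561 in wild type and 369.6 and 314 in Eed-/- (log2 0.75, SE 0.11, adjusted p = 0.0023, 1.71-fold). Both were higher in Jarid2-/-. Ddx4, a germ cell RNA helicase, read 684 and 588 in Jarid2-/-, 1322 and 1359.9 in Ezh2-/-, 942 and 1059.7 in wild type and 1892 and 2071 in Eed-/- (log2 -1.06, SE 0.11, adjusted p = 0.00041, 2.11-fold). Stk31, a testis kinase, read 103 and 88.9 in Jarid2-/-, 231 and 296 in Ezh2-/-, 313 and 309 in wild type and 464 and 566 in Eed-/- (log2 -1.31, SE 0.14, adjusted p = 0.00047, at least 1.78-fold). Piwil2, a PIWI protein that binds small RNAs, read 396 and 392 in Jarid2-/-, 708 and 742 in Ezh2-/-, 415 and 538 in wild type and 1194 and 1327 in Eed-/- (log2 -0.85, SE 0.13, adjusted p = 0.0027, 1.84-fold). These 3 were lower in Jarid2-/- than on the arrays of the other mutants.

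Signalling genes of the Wnt, Fgf and Bmp pathways had 3 higher, 6 lower and 35 not past the threshold among 44 measured, beside 8.37% higher and 7.63% lower over all genes. The calls of 5 held, among them Lefty1 and Wnt5a. Id1, an inhibitor of basic helix-loop-helix factors and a direct target of Bmp signalling, read 2379.7 and 2320.4 in Jarid2-/-, 6400.1 and 7857 in Ezh2-/-, 5569 and 4776 in wild type and 3007 and 4229 in Eed-/- (log2 -1.59, SE 0.16, adjusted p = 0.00031, 3.03-fold). The Jarid2-/- arrays were the lowest of the 8. Inhbb, a subunit of activin B, read 1194 and 712 in Jarid2-/-, 2263 and 2549 in Ezh2-/-, 1701 and 1946 in wild type and 743 and 727 in Eed-/- (log2 -1.37, SE 0.20, adjusted p = 0.0024, 2.52-fold). Spry2, a feedback inhibitor of Fgf signalling that lies in the chromosome 14 run, read 5237 and 5580.3 in Jarid2-/-, 7795 and 8157 in Ezh2-/-, 4481 and 4181 in wild type and 4493 and 4787 in Eed-/- (log2 -0.56, SE 0.07, adjusted p = 0.00084, 1.47-fold). Wnt5a, a noncanonical Wnt ligand, was within the controls in both mutants, so no level or order is read from its call. Among 20 cell cycle inhibitors and p53 targets, 2 were higher and 5 lower, and the call of Aen, an apoptosis nuclease induced by p53, held at 1537 and 1629 in Jarid2-/- and 2449 and 2496 in Ezh2-/- (log2 -0.64, SE 0.09, adjusted p = 0.0016, 1.56-fold). Of 24 stress and immediate early genes 4 were higher and 2 lower, with no call that held, and of 18 epithelial junction genes 2 were higher and 1 lower, likewise with none that held.

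Genes of amino acid metabolism that were called were higher in Jarid2-/-. Of 14 genes of serine, glycine and threonine metabolism, 7 were higher in Jarid2-/- and 0 lower in the limma fit (1 lower at an unadjusted p under 0.05), with a median log2 difference of 0.26 beside -0.01 over all genes, and 4 calls held. Without Shmt1, described below, 6 were higher, 0 lower and 3 calls held. Cth, the enzyme that makes cysteine from cystathionine, read 8636 and 8473 in Jarid2-/-, 3459.8 and 3442 in Ezh2-/-, 4119.9 and 2998 in wild type and 5062 and 5502 in Eed-/- (log2 1.31, SE 0.13, adjusted p = 0.00027, 2.48-fold). It lies in the chromosome 3 run, and without genes of the runs, but with Shmt1, 6 members were higher. Psat1, an aminotransferase of serine synthesis, read 11727 and 12596 in Jarid2-/-, 8124 and 7941 in Ezh2-/-, 10961 and 12857 in wild type and 9594 and 10737 in Eed-/- (log2 0.60, SE 0.08, adjusted p = 0.0015, 1.51-fold). Asns, asparagine synthetase, read 11137 and 13945 in Jarid2-/-, 7509.7 and 7454 in Ezh2-/-, 9223 and 10935 in wild type and 10493 and 12647 in Eed-/- (log2 0.74, SE 0.12, adjusted p = 0.0042, 1.68-fold). Both were lowest in Ezh2-/-. Shmt1, a serine hydroxymethyltransferase, read 5138 and 5199 in Jarid2-/-, 3479 and 3468 in Ezh2-/-, 4996 and 4993 in wild type and 3509 and 3219 in Eed-/- (log2 0.57, SE 0.07, adjusted p = 0.0007, 1.49-fold), but its probe sets were called in opposite directions and its sign is uncertain. Phgdh, the first enzyme of serine synthesis, read 9524 and 10745 in Jarid2-/- and 8576 and 8234 in Ezh2-/- and was not past the threshold (log2 0.27, SE 0.09, adjusted p = 0.081).

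Sterol synthesis genes showed 3 higher, 1 lower and 15 not past the threshold among 19, with a median of 0.20, and the 3 higher calls held. Hmgcs1, which makes the precursor of mevalonate, read 6706 and 7503 in Jarid2-/-, 4411 and 4557 in Ezh2-/-, 6904 and 7267 in wild type and 7746 and 9021 in Eed-/- (log2 0.66, SE 0.08, adjusted p = 0.0011, 1.58-fold). Fdft1, squalene synthase, read 4858 and 4956 in Jarid2-/-, 3011 and 3007 in Ezh2-/-, 4204 and 4643 in wild type and 4816 and 5713 in Eed-/- (log2 0.70, SE 0.09, adjusted p = 0.0011, 1.63-fold). Fdps, farnesyl diphosphate synthase, read 5514 and 5369.6 in Jarid2-/-, 3938 and 4071 in Ezh2-/-, 4713 and 5186 in wild type and 6084 and 6169 in Eed-/- (log2 0.44, SE 0.07, adjusted p = 0.0025, 1.36-fold). In each the Ezh2-/- arrays were the lowest of the 8. Of 15 glycolysis genes 2 were higher and 1 lower. Hk2, a hexokinase, was the lower one, at 5221 and 5341 in Jarid2-/- and 9267 and 9576 in Ezh2-/- (log2 -0.83, SE 0.07, adjusted p = 0.00011, 1.78-fold), and it lies in the longer chromosome 6 run. Fn1, fibronectin, was one of 3 higher among 30 fibroblast and feeder cell markers, at 8449 and 11102 in Jarid2-/-, 4832 and 4780.4 in Ezh2-/-, 8986 and 10978 in wild type and 7059 and 7795 in Eed-/- (log2 1.01, SE 0.13, adjusted p = 0.0011, 2.03-fold), and 1 marker was lower.

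Interferon response and antigen presentation genes had 8 higher, 1 lower and 19 not past the threshold among 28, with a median of 0.16, and 5 calls held. Irf1, an interferon-induced transcription factor, read 1462 and 1403 in Jarid2-/-, 785 and 796 in Ezh2-/-, 2413 and 2180.5 in wild type and 1871 and 1984 in Eed-/- (log2 0.84, SE 0.09, adjusted p = 0.00048, 1.81-fold). Ifitm1, a membrane protein also abundant in early germ cells, read 15354 and 15667 in Jarid2-/-, 9904 and 9779 in Ezh2-/-, 13450.0 and 15822 in wild type and 18224 and 15561 in Eed-/- (log2 0.66, SE 0.08, adjusted p = 0.0012, 1.58-fold). Ifitm2, its relative, read 7381 and 7714 in Jarid2-/-, 5236 and 5343 in Ezh2-/-, 7391 and 8438 in wild type and 6964 and 6588 in Eed-/- (log2 0.51, SE 0.07, adjusted p = 0.0017, 1.43-fold). The Ezh2-/- arrays were the lowest of the 8 for these 3 genes. Gbp2, a guanylate-binding protein, read 499 and 574 in Jarid2-/-, 67.2 and 51.0 in Ezh2-/-, 2179 and 1335 in wild type and 591 and 876 in Eed-/- (log2 2.88, SE 0.24, adjusted p = 0.00015, at least 3.63-fold). It lies with Gbp3 in the chromosome 3 run, and without genes of the runs 6 members were higher. B2m, the light chain of MHC class I, read 815 and 1086 in Jarid2-/- and 1084 and 977 in Ezh2-/- (log2 -0.13, SE 0.16, adjusted p = 0.68), and was not past the threshold.

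Eif2s3y was higher in Jarid2-/- among the Y-linked genes. Eif2s3y, a Y-linked translation factor subunit, read 522 and 482 in Jarid2-/-, 20.4 and 13.1 in Ezh2-/-, 1627 and 1567 in wild type and 2268 and 2117 in Eed-/- (log2 3.99, SE 0.12, adjusted p = 5.4e-07, at least 3.39-fold). Uty, a Y-linked relative of the demethylase UTX, read 151 and 106 in Jarid2-/-, 7.64 and 11.5 in Ezh2-/-, 464 and 345 in wild type and 402 and 429 in Eed-/- (log2 2.48, SE 0.18, adjusted p = 7.4e-05), with both mutant means within the controls, where the call says nothing of a level. Of the 5 measured members of the list with Xist, 2 were higher and 0 lower, with 0 lower at an unadjusted p under 0.05. For Eif2s3y the Ezh2-/- arrays lay within the negative controls and the Jarid2-/- arrays were between them and wild type, a difference whose cause was not tested. No level or order is read from Uty. Xist, the RNA that coats the inactive X chromosome, read 467 and 401 in Jarid2-/- and 324 and 299 in Ezh2-/- (log2 0.46, SE 0.15, adjusted p = 0.076). With the 4 arrays alone Xist was called higher in Jarid2-/-. Ribosomal protein genes served as a comparison of genes that every cell uses: 42 of 43 were not past the threshold, 0 were higher in the limma fit (6 at an unadjusted p under 0.05), and Rps6 was lower, at 2104 and 2001 in Jarid2-/- and 3299.7 and 3346 in Ezh2-/- (log2 -0.69, SE 0.10, adjusted p = 0.0025, 1.62-fold).

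**Figure D5:**
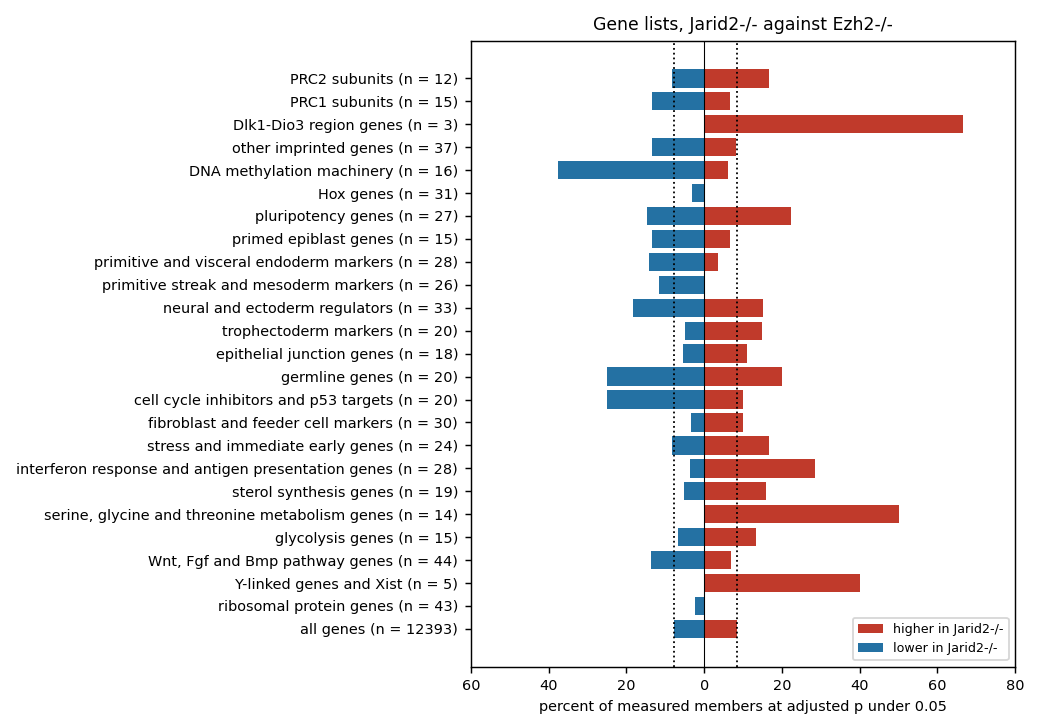
Share of measured members of each gene list called higher (to the right) and lower (to the left) in Jarid2-/- than in Ezh2-/-, in percent, with the shares over all genes (8.37% higher, 7.63% lower) as dotted lines. Serine, glycine and threonine metabolism has 7 of 14 higher (Shmt1 included), and DNA methylation machinery 6 of 16 lower.

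The median log2 differences of the lists, beside -0.01 over all genes, were small for most. Lists of 10 or more genes ran from -0.14 for the DNA methylation machinery and -0.11 for the cell cycle inhibitors and p53 targets to 0.22 for glycolysis and 0.26 for serine, glycine and threonine metabolism. Endoderm markers had a median of -0.07, mesoderm markers -0.08 and the Wnt, Fgf and Bmp genes -0.08. The PRC2, trophectoderm and germline lists had medians of 0.00, 0.03 and 0.00, and ribosomal protein genes one of 0.02. No list was tested as a whole.

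Gene names rest on single probe sets, and 15 genes had probe sets called in opposite directions. Those with the largest gap were Adi1, Shmt1, Zfp37, Nup62, Snapc3 and Riok3. The counts of calls per gene include such genes by the direction of their brightest probe set.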

How the data were processed

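Expression was measured on Affymetrix 3′ arrays in 8 samples, 2 per genotype. The authors deposited a value table that gives a linear intensity for each probe set, lowest value 1, whose background correction and normalization are not given in the sources used here. A second deposited table, of dChip model-based values per the file headers, has 12 columns that match no sample label and was not used. Of the probe sets of the value table, 64 controls were left out and 22626 tested. Intensities were floored at 1, 16 was added and log2 taken. A mean per genotype over the 8 arrays was estimated with limma 3.58.1 in R 4.3.3 (lmFit and eBayes with an intensity trend, 4 residual and 5.02 prior degrees of freedom), and the contrast Jarid2-/- minus Ezh2-/- was tested two-sided, adjusted by Benjamini and Hochberg over 22626 probe sets, with calls under 0.05. A fold is the ratio of mean intensities; where the dimmer mean was at or below the highest negative control of 148, that control took its place, and no fold is given where both were. The platform table gave 20380 probe sets 1 symbol, 691 several and 1555 none, and 20351 were looked up by Entrez identifier with no change of symbol. Each of 12393 genes was represented by its brightest probe set.

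Named genes were the targeted genes, the 20 largest called differences per direction with non-overlapping groups and a brighter mean above 337.6, up to 6 members of each list with the smallest p, the whole PRC2, Dlk1-Dio3 and Y-linked lists, up to 4 genes of the most deviating chromosome, and up to 6 genes with opposing probe sets. Further list members were named after their values were seen. The comparison, its members and the 24 gene lists were chosen with earlier results of these data known, so lists are given as counts and medians with no test. Same-numbered arrays are not stated to share a culture. Their deviations correlated by 0.022 between Jarid2-/- and Ezh2-/-, so the compared arrays were not treated as pairs; the correlation was 0.411 between wild type and Jarid2-/-, 0.244 between Eed-/- and Jarid2-/-, and 0.008 to 0.05 for the other pairs of groups. On simulated data with 200 of 22626 probe sets changed for this comparison, 62% of 1.5-fold, 94% of 2-fold and 98% of 4-fold changes were recovered, and 9 of the 183 calls fell on unchanged ones. The changed probe sets were drawn from those above a limit of mean signal, with noise drawn independently for each array. The rates therefore do not cover dim probe sets, and fewer probe sets were changed than were called here. Alternatives were another scaling, constant, dim filter, variance model, sample set and replicate block, and leaving out each array. The number of arrays limits the precision.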

Additional observations from a re-analysis of the deposited data

How the results depend on the processing

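The number of called probe sets moved by over 1.5 times only when an array of the compared groups was left out: over the 8 arrays left out in turn it ran from 1124 to 4211 for either direction, from 535 to 2145 higher and from 589 to 2070 lower, with the low counts without Ezh2-/- replicate 1 (1218 in all, 603 higher and 615 lower), Ezh2-/- replicate 2 (1124, 535 and 589) and Jarid2-/- replicate 2 (1543, 725 and 818). The lone remaining array was then taken to vary like the other groups. Quantile scaling, equal medians, other constants, a dim filter, no intensity trend and a fit of the 4 arrays alone stayed within 1.5 times of the 3404 reported. With the replicate number as a block, 2311 probe sets were higher and 2240 lower, 4551 in all, and 1982 of the 1982 called genes kept their call; the pairing has no basis in the labels. The runs of neighbouring genes, the counts without them and those without genes with opposing probe sets were added after seeing the data. The run medians stayed between -0.470 and -0.398 on chromosome 14, between 0.857 and 0.909 on chromosome 3, and between -0.616 and -0.587 and between -0.663 and -0.576 on chromosome 6. Since the runs were cut on these same arrays, the narrow ranges do not test them independently. Signals at or below the negative controls limit 11 of the 20 largest differences in one direction and 6 of the 20 in the other to bounds.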
